A study of Mus musculus with 2 samples.

Results

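This report describes the T cell receptor beta (TRB) gene segments used by GD2TIF cells recovered from mouse spleen. GD2TIF cells are mouse T cells with a Cas9 transgene that were activated and given a retrovirus, which targets Bcor and Zc3h12a and delivers a chimeric antigen receptor against the ganglioside GD2 (14g2a). Each immunocompetent C57BL/6 mouse received 1000000 of them, and 2 months later 1000000 CD8+Thy1.1+ GD2TIF cells were sorted from spleen and loaded on a Singleron microwell chip. From this sort came 1 receptor library and 1 RNA library of single cells, and no other group. The labels do not state how many mice were pooled. The members are all V, D, J and C names on contigs of chain TRB flagged productive: 38 of the 157 segment names of all productive contigs, made of 22 V, 2 D, 12 J and 2 C names. They came from 4809 TRB contigs of 10367 productive contigs, in 4559 cell barcodes with 484 distinct TRB CDR3 nucleotide sequences. Every contig of this set was flagged full length, and a contig had a median of 13 UMIs (1 to 77). The cells carrying 1 such sequence are called a family below. No value has a replicate, no test was run, and all intervals are 95% exact intervals that cover counting error only. Cells of 1 family share a sequence and are not independent, so intervals over cells are too narrow.

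A TRB gene is assembled in a developing T cell by joining 1 V, 1 D and 1 J segment, with bases removed and added at each joint, and the joined exon is then spliced to a C region. The complementarity-determining region 3 (CDR3), which spans the joints, contacts peptide antigen. Along the mouse locus most V segments lie first, followed by D1, the J1 cluster and C1, then D2, the J2 cluster and C2, while TRBV31 lies beyond C2. A D segment can join only J segments downstream of it unless the locus is inverted, and a J segment is spliced to the C region that follows its own cluster. RefSeq (GRCm38.p6) places the locus on chromosome 6, from Trbv1 at 40891296 to 40891885, to Trbv31 at 41557693 to 41558371. Trbd1 lies at 41533201 to 41533212, Trbc1 at 41538219 to 41539665, Trbd2 at 41542163 to 41542176 and Trbc2 at 41546730 to 41548181.

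The CDR3 sequences of the 6 families with most barcodes are shown because they hold most of the cells of the leading V and J segments. Each is written 5′ to 3′, with capitals marking the bases between the V end and the J end that its segments share with their other sequences.
TRBV15 TRBJ1-1 TRBC1: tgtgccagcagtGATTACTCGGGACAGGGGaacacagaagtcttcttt
TRBV12-2+TRBV13-2 TRBJ2-3 TRBC2: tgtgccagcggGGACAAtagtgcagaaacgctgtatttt
TRBV29 TRBJ1-1 TRBC1: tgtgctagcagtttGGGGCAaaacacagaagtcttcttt
TRBV13-3 TRBJ2-1 TRBC2: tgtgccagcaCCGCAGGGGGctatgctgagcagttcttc
TRBV17 TRBJ1-1 TRBC1: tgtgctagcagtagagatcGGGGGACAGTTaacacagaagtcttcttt
TRBV15 TRBJ2-5 TRBC2: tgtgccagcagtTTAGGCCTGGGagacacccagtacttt
These were found in 1051, 693, 278, 220, 217 and 177 barcodes, in that order. The first has 18 bases between its V and J ends, and a run of 10 of them, GGGACAGGGG, is also in the D1 run given below. The second and the third have 6 such bases each. Of the 484 sequences, 313 were seen in 1 barcode and 45 in at least 10 barcodes, and the latter covered 3887 barcodes.

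The V and J ends show the CDR3 bases found with each segment name. A V end alone does not name its segment. The TRBV15 end below also begins those of TRBV13-1 and TRBV13-3, and the TRBV12-2 end begins that of TRBV12-1. The V ends below are the first CDR3 bases that sequences of each V name share, with base 10, counted from 1 at the 5′ end of the CDR3, in capitals.
TRBV15: tgtgccagcAgt
TRBV12-2+TRBV13-2: tgtgccagcGgtgatgc
TRBV29: tgtgctagcAgttt
TRBV17: tgtgctagcAgtagagatc
TRBV13-3: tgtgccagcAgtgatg
TRBV12-2: tgtgccagcTctc
TRBV12-1: tgtgccagcTctctcg
TRBV13-1: tgtgccagcAgtga
TRBV3: tgtgccagcAgcttag
Not every sequence of a name held its whole end. Among the V names printed, it was kept in 16.7% of the 36 TRBV12-1 sequences at the lowest. It was kept in 76.5% of the 34 TRBV15 sequences at the highest, and in 19.6% of the 56 of the joined name. Base 10 was G in 51 of the 56 sequences named TRBV12-2+TRBV13-2 and in 3 of the 3 named TRBV13-2 alone. It was T in all 40 sequences named TRBV12-2 and in 35 of the 36 named TRBV12-1. It was A in 35 of 36 sequences of TRBV13-3 and in all 36 of TRBV13-1. At this base most sequences of the joined name read as those of TRBV13-2 did, and none read as those of TRBV12-2 did. Contigs with the joined name had a median length of 687 bases, those named TRBV12-2 690.5 and those named TRBV13-2 650. V names could differ between contigs of a sequence. Of the 484 sequences, 23 carried more than 1 V name, and 124 contigs had a V name that was not the commonest of their sequence. No sequence had more than 1 J name or more than 1 C name.

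The J ends are the last CDR3 bases that sequences of each J segment share, printed in lower case.
TRBJ1-1: aaacacagaagtcttcttt
TRBJ1-2: caaactccgactacaccttc
TRBJ1-3: attctggaaatacgctctatttt
TRBJ1-4: tttccaacgaaagattatttttc
TRBJ1-5: aataacaaccaggctccgcttttt
TRBJ1-6: taattcgcccctctacttt
TRBJ2-1: ctatgctgagcagttcttc
TRBJ2-2: aaacaccgggcagctctacttt
TRBJ2-3: tagtgcagaaacgctgtatttt
TRBJ2-4: ctagtcaaaacaccttgtacttt
TRBJ2-5: ccaagacacccagtacttt
TRBJ2-7: ggagctcctatgaacagtacttc
The whole TRBJ2-2 end was kept in 73.9% of its 23 sequences, against 5.81% of the 86 sequences of TRBJ2-7, whose shared end is 23 bases long. For TRBJ1-1 it was 31.9% of 72 sequences. A shared end is read from these contigs and is not the germline segment, so a missing base can be trimmed or replaced.

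V segments were used unevenly by cells and more evenly by distinct sequences. TRBV15 was named in 27.3% of cells (26.0 to 28.6) but in 7.02% of sequences (4.91 to 9.68), a ratio of 3.88. The joined name TRBV12-2+TRBV13-2 was in 20.1% of cells (18.9 to 21.3) and 11.6% of sequences (8.86 to 14.8). These intervals do not overlap for either name. The V15 family shown first held 81.9% of TRBV15 cells, and the second family held 69.5% of the cells with the joined name. Without the largest family, TRBV15 stood at 6.36% of cells and the joined name at 25.8%.

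Of the other V names over 5% of cells or sequences, some had overlapping intervals over cells and sequences and some had a lower share of cells. TRBV29 took 8.42% of cells and 6.82% of sequences, TRBV17 7.90% and 5.58%, and TRBV13-3 7.76% and 7.44%. The intervals of these 3 overlap between cells and sequences. TRBV12-2 took 4.50% of cells (3.91 to 5.14) and 8.26% of sequences (5.97 to 11.1), and TRBV12-1 took 4.23% (3.67 to 4.86) and 7.44% (5.26 to 10.1). For TRBV13-1 the shares were 2.85% of cells (2.39 to 3.38) and 7.44% of sequences (5.26 to 10.1). The intervals of these 3 do not overlap. TRBV3 took 3.58% of cells and 5.17% of sequences, with intervals that overlap. The other 13 V names took 0.0439% to 4.83% of cells and 0.413% to 4.96% of sequences each, and together 13.4% of cells and 33.3% of sequences.

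**Figure D1:**
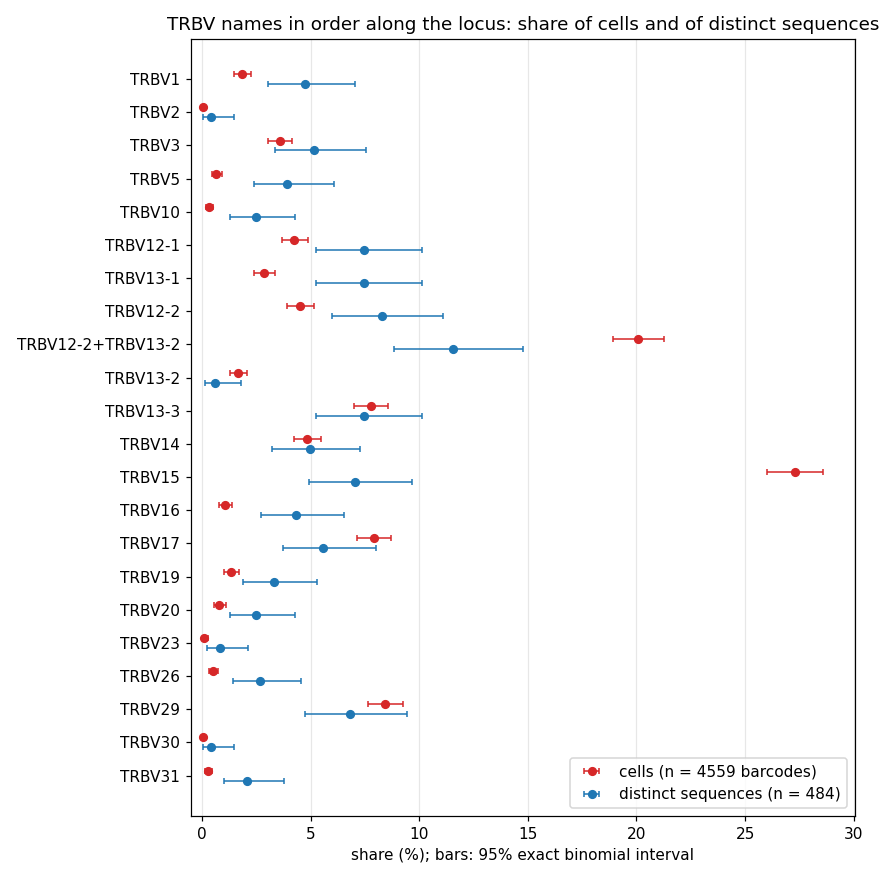
Share of cells (red, n = 4559) and of distinct sequences (blue, n = 484) with each V name on the x axis in percent, in order along the locus on the y axis, with 95% exact binomial intervals. TRBV15 at 27.3% and TRBV12-2+TRBV13-2 at 20.1% of cells lie far to the right of their blue points at 7.02% and 11.6%.

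RefSeq lists 35 V segments in the locus, of which 13 are listed as pseudogenes. No productive contig named 14 of the 35, and 11 of these 14 are pseudogenes. The exceptions run the other way: TRBV29 had 425 productive contigs and TRBV10 had 17, although RefSeq lists both as V pseudogenes. TRBV31, the segment beyond C2, was in 12 cells and 10 sequences, or 2.07% of sequences (0.995 to 3.77).

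J segments showed the same contrast. TRBJ1-1, the first J after D1, was in 39.5% of cells (38.1 to 41.0) and 14.9% of sequences (11.8 to 18.4). TRBJ2-3 was in 17.2% of cells and 9.92% of sequences. TRBJ2-7 went the other way, with 11.5% of cells (10.6 to 12.4) and 17.8% of sequences (14.5 to 21.5), the highest J share over sequences. TRBJ2-1 took 7.24% and 11.6%, TRBJ2-4 5.40% and 10.1%, and TRBJ2-5 9.54% and 10.1% of cells and sequences. The family shown first made up 56.5% of TRBJ1-1 cells, and the second made up 87.2% of TRBJ2-3 cells. Without the largest family TRBJ1-1 stood at 22.1% of cells.

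The remaining J segments were less used. TRBJ1-4 took 3.31% of cells and 5.79% of sequences, TRBJ1-2 took 2.24% and 5.99%, and TRBJ2-2 took 1.56% and 4.75%. TRBJ1-6 was in 1.18% of cells and 1.86% of sequences, TRBJ1-5 in 1.05% and 4.75%, and TRBJ1-3 in 0.285% and 2.48%. Of the 14 J segments in RefSeq, TRBJ1-7 and TRBJ2-6 had no productive contig, which allows a share of up to 0.620% of the 484 sequences. RefSeq lists Trbj2-6 as a J pseudogene and Trbj1-7 as a J segment. Over both clusters, J2 held 52.4% of cells (50.9 to 53.8) and 64.3% of sequences (59.8 to 68.5). It held 62.9% of sequences seen in 1 barcode, 67.5% of those in 2 to 9 barcodes and 64.4% of those in at least 10, with overlapping intervals.

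**Figure D2:**
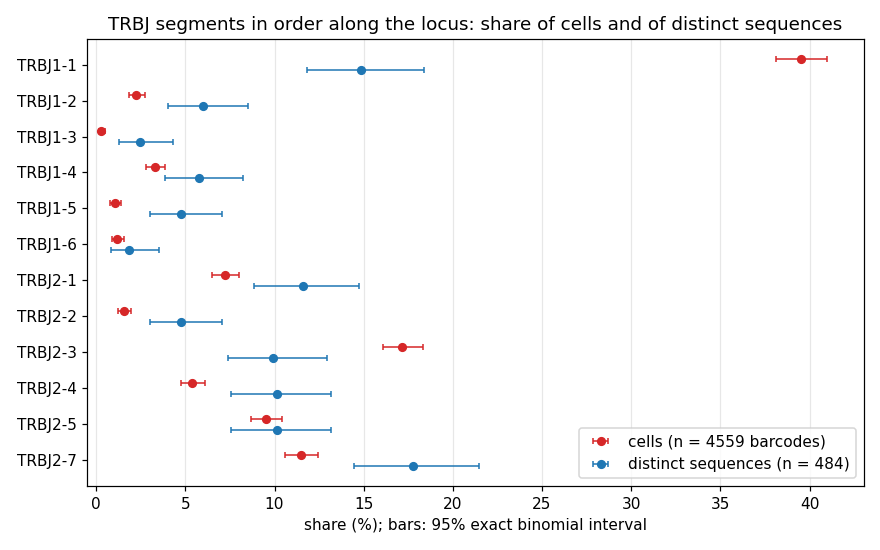
Share of cells (red, n = 4559) and of distinct sequences (blue, n = 484) with each J segment on the x axis in percent, in order along the locus, with 95% exact binomial intervals. TRBJ1-1 (39.5% of cells, 14.9% of sequences) and TRBJ2-3 (17.2%, 9.92%) lie right of their blue points, while TRBJ2-7 (11.5%, 17.8%) lies left.

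V and J names met in 173 of 264 possible pairs over distinct sequences, and 52 of these pairs held exactly 1 sequence. The pair with most sequences was TRBV12-2+TRBV13-2 with TRBJ2-7, at 13 sequences and 133 cells. The joined name with TRBJ2-3 had 12 sequences and 647 cells, and with TRBJ2-1 it had 10 sequences and 28 cells. TRBV15 with TRBJ1-1 had 10 sequences and 1027 cells, or 22.5% of cells. So a pair with many sequences could hold few cells. These counts include near copies, which differ by 1 substitution from a sequence with the same J and at least 10 times as many barcodes. Without near copies the joined name had 46 of 450 sequences, against 56 of 484 with them. For TRBJ1-1 it was 59 of 450, against 72 of 484. Among V names with at least 10 sequences, the 3 highest J2 shares were 80.6% for TRBV12-1 (64.0 to 91.8), 76.8% for the joined name (63.6 to 87.0) and 75.0% for TRBV14 (53.3 to 90.2). The 3 lowest were 33.3% for TRBV20 (9.92 to 65.1, 12 sequences), 50.0% for TRBV19 (24.7 to 75.3) and 52.4% for TRBV16 (29.8 to 74.3). All these intervals overlap.

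**Figure D3:**
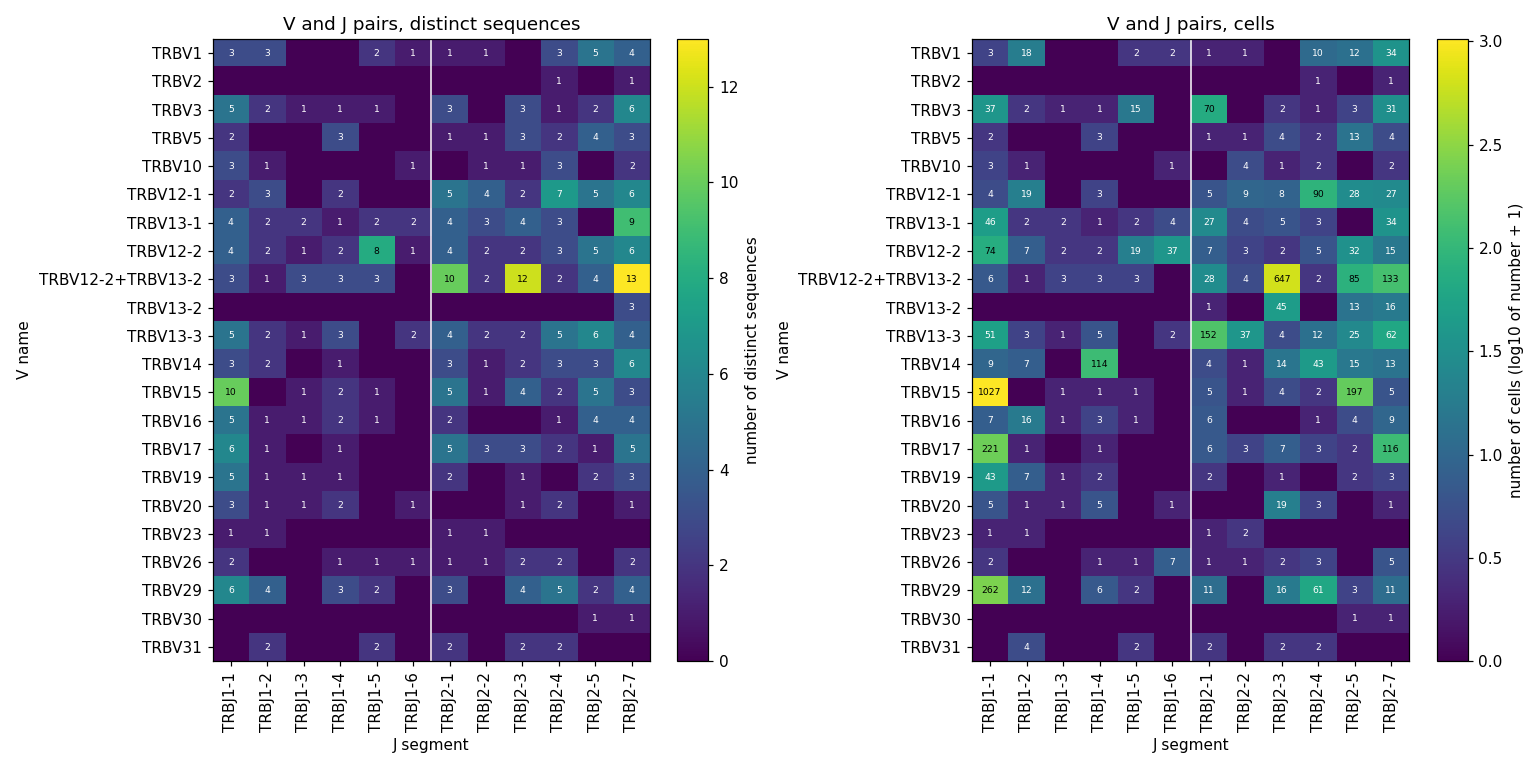
Number of distinct sequences (left) and of cells (right, colour on a log10 scale of the number + 1) for each V name (y axis) and J segment (x axis). The white line parts the J1 and J2 clusters. On the left no pair exceeds 13 sequences, while on the right TRBV15 with TRBJ1-1 holds 1027 cells and TRBV12-2+TRBV13-2 with TRBJ2-3 holds 647. A cell takes the V name of its own contig and a sequence its commonest name, which is why TRBV13-2 has cells in pairs with no sequence.

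The C gene followed the J cluster in every contig where a C gene was called. TRBC1, the constant region after the J1 cluster, was called in 2064 contigs and TRBC2 in 2483. The J cluster number equalled the C number in 4547 of 4547 contigs (99.9 to 100%) and in 454 of 454 sequences. No J1 contig had TRBC2, which allows up to 0.145% of 2064 contigs, and no J2 contig had TRBC1, which allows up to 0.121% of 2483. Over cells TRBC1 was called in 43.5%, TRBC2 in 51.3% and no C in 5.24%.

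Calls were missing unequally. No C gene was called in 9.07% of J1 contigs (7.92 to 10.3) and in 2.21% of J2 contigs (1.67 to 2.85). The share was 21.8% for TRBJ1-6, 16.0% for TRBJ1-2, 8.21% for TRBJ1-1 and 1.36% for TRBJ2-5. Contigs without a C call were shorter and shallower, with a median of 6 UMIs and 481.5 bases in J1 against 13 UMIs and 527 bases in J1 contigs with a call. For J2 the medians were 8 UMIs and 560.5 bases against 15 UMIs and 653 bases. Families differed too: it was missing in 18.9% of the 217 contigs of the TRBV17 TRBJ1-1 family, 24.2% of the 33 contigs of a TRBV3 TRBJ1-1 family and 5.33% of the 1051 contigs of the largest family. The part that length and depth play in this difference was not tested.

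A D gene was called in only 7 of the 4809 contigs, so the D segments had to be read from the CDR3 itself. TRBD1 was called in 3 contigs, of which 2 had a J1 and 1 a J2 segment, and TRBD2 in 4 contigs, all with a J2 segment. The bases these contigs share are the following, with no capitals.
TRBD1 run: gggacagggggc
TRBD2 run: cgggactgggggggc
The TRBD1 run is 12 bases long, as RefSeq gives for Trbd1, and the TRBD2 run is 15 bases, against 14 for Trbd2. In the 473 sequences with shared V and J ends, a stretch of at least 6 bases of 1 of these runs was looked for between the ends, on the strand as printed. This reading was added after the few calls had been seen. With a J1 segment, 76 of 171 sequences held a longest stretch of the TRBD1 run and 6 of the TRBD2 run, 9 tied and 80 had none. With a J2 segment, the longest stretch was of the TRBD1 run in 62 of 302 and of the TRBD2 run in 125, while 9 tied and 106 had none.

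The next shares are over sequences given to 1 D run by their longest stretch, with ties left out. Such a sequence can also hold a shorter stretch of the other run. TRBD2 made up 7.32% of those with a J1 segment (2.73 to 15.2, n = 82) and 66.8% of those with a J2 segment (59.6 to 73.5, n = 187). The shares were 11.5% and 61.3% when 5 bases sufficed, 6.78% and 72.1% with 7 bases, and 7.14% and 77.1% with 8. TRBD2 lies after the J1 cluster, and the intervals of J1 and J2 do not overlap at any of these lengths. The TRBD2 run begins with a c followed by the 5 bases that open the TRBD1 run. A stretch of 6 bases made of these is given to TRBD2 by that first c alone. The run is also longer than RefSeq gives for Trbd2. Of 171 J1 sequences, 6 were given to TRBD2 with 6 bases and 4 with 7. Whether these few J1 sequences hold that segment was not tested.

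Between the V and J ends lay a mean of 11.0 bases (SD 5.11 over 473 sequences), with 3 sequences having none and the longest having 35. Guanine made up 46.2% of these bases, against 33.0% of the V ends and 13.9% of the J ends. With the D stretches removed it was 29.2%. Both D runs are mostly guanine, so their removal lowers this share by construction.

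CDR3 length is given by segment over distinct sequences, with the SD of single sequences. The overall mean was 13.9 amino acids (SD 1.54, 8 to 18). TRBJ2-7 had the shortest mean, at 13.1 (SD 1.63, n = 86), followed by TRBJ1-5 at 13.4 and TRBJ1-2 at 13.5. The longest were TRBJ2-2 at 14.8 (SD 1.34, n = 23), TRBJ1-4 at 14.6 and TRBJ2-4 at 14.5. The J1 and J2 clusters had means of 13.8 and 13.9, with an SD of 1.51 and 1.55. Among V names, TRBV5 and TRBV1 had 14.6 and TRBV3 14.4, while TRBV10 had 13.3, TRBV29 13.4 and TRBV12-2+TRBV13-2 13.4.

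Cells crowd into fewer lengths than sequences do. Cells had a mean of 14.2 amino acids, with 36.9% at 13 and 29.3% at 16 amino acids, where sequences had 16.5% and 10.1%. The largest family and the TRBV17 TRBJ1-1 family have 16 amino acids and the other 4 of the families shown have 13. At 14 amino acids, the commonest length of sequences at 30.2%, cells had 15.9%. TRBJ1-1 had a mean of 13.7 over sequences and 15.2 over cells, and TRBJ2-3 had 14.1 and 13.1.

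**Figure D4:**
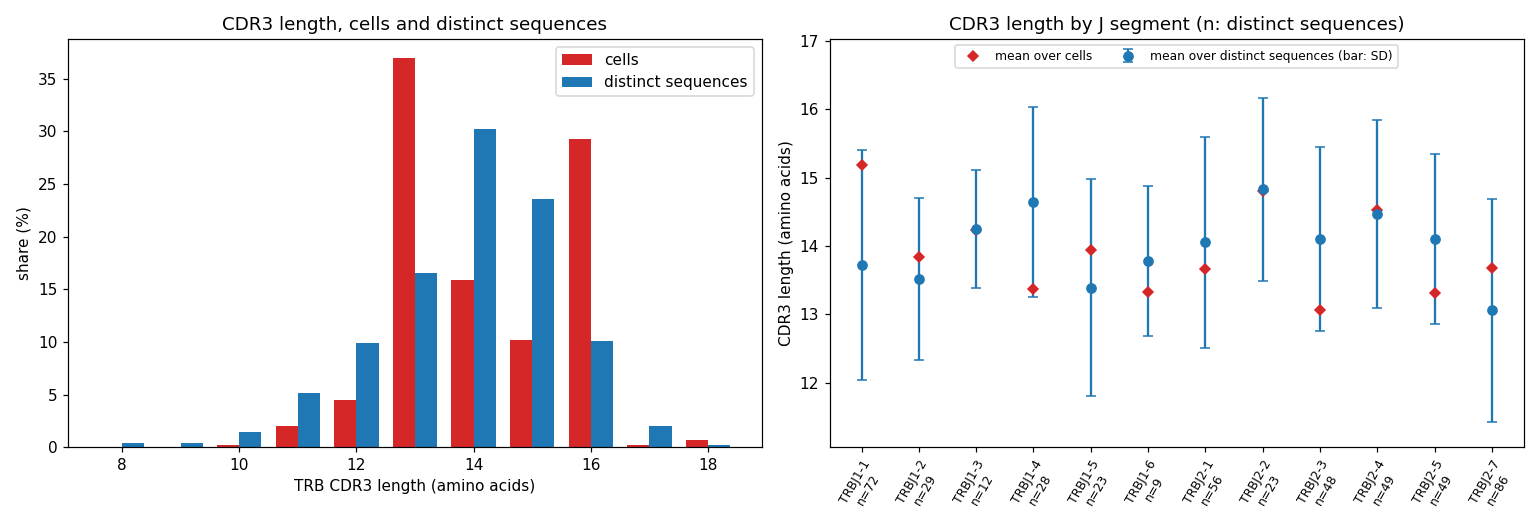
Left, share of cells (red) and of distinct sequences (blue) in percent at each CDR3 length in amino acids. Right, mean length by J segment over distinct sequences (blue, bar SD) and over cells (red diamonds). Cells peak at 13 and 16 amino acids and sequences at 14, and TRBJ2-7 has the lowest blue mean, 13.1.

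A pair of distinct TRB sequences was found in 247 barcodes, and J clusters could be the same or different. The 2 sequences used 1 J1 and 1 J2 segment in 47.8% of these (41.4 to 54.2), both J2 in 39.3% and both J1 in 13.0%. There were 61 different pairs, of which 44 occurred in 1 barcode, while 9 occurred in at least 5 barcodes and together in 179. The shares over barcodes thus rest largely on few pairs, and barcodes of 1 pair are not independent. With each pair counted once, 28 of the 61 had 1 J1 and 1 J2 segment, 18 had both J2 and 15 had both J1. The commonest pair joined the TRBV13-3 TRBJ2-1 sequence with a TRBV12-2+TRBV13-2 TRBJ2-7 sequence, in 74 barcodes. That is 33.6% of the barcodes of the first and 62.2% of the second. Next was a TRBV3 TRBJ2-1 sequence with the TRBV29 TRBJ1-1 sequence, in 53 barcodes, or 55.2% and 19.1%. By contrast the 2 largest families shared 19 barcodes, 1.81% and 2.74% of theirs. Whether a pair is 1 cell with both sequences or more than 1 cell under a barcode was not tested, and no doublet caller was run.

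The RNA library gave a second readout of the C gene. It held 10338 kept cells with a median of 1922 UMIs, and 4126 of them (39.9%) had a productive TRB contig. The CD8 genes Cd8a and Cd8b1 were at 208 and 407 counts per 1000000 UMIs (CPM). Trac, which is not particular to CD8 T cells, was at 1395 CPM. Cd4 was at 0.628 CPM, the myeloid genes Lyz2 and Csf1r at 0.180 each and Itgam at 7.18. The B cell genes Cd79a and Cd79b were at 4.04 and 14.4 CPM. Hbb-bs, a hemoglobin gene of erythroid cells, was at 55.8 CPM. Trdc stood at 3.05 CPM, and Trgc1, Trgc2 and Trgc4 were not among the genes of the matrix.

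In the RNA, Trbc1 and Trbc2 UMIs separated cells by the C gene of their contig. The share of Trbc1 in the sum of both was 77.2% (76.7 to 77.6) in 1742 cells with TRBC1 contigs and 9.99% (9.64 to 10.3) in 2054 cells with TRBC2 contigs. In 104 cells with both it was 38.3%. In cells whose contig had no C call it was 65.8% (63.7 to 67.9) with a J1 segment, 159 cells, and 19.0% (15.5 to 23.0) with a J2 segment, 41 cells. These cells thus lay on the side of their J cluster. Among 6212 cells without a TRB contig the share was 39.5%. Summed TRBC UMIs were at 8369 CPM in the TRBC1 class, 6133 in the TRBC2 class and 5620 in cells without a contig, with median depths of 2092, 2064 and 1814.5 UMIs per cell. Trbc1 and Trbc2 are near-identical genes, so reads could be split between them, which was not tested. The strand of counting is not stated in the labels.

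Single cells and families spread around those sums. Among cells with at least 10 TRBC UMIs, the median Trbc1 share was 83.3% in 1489 TRBC1 cells and 6.67% in 1387 TRBC2 cells. In the TRBC1 class 58.1% of these cells were at 80% or more and 1.75% at 20% or less, and in the TRBC2 class 0.721% and 87.0%. By family, 15 families with a J1 segment and at least 10 cells ranged from 38.6% to 86.3%, with a median of 68.5%. The 24 families with a J2 segment ranged from 4.15% to 39.6%, with a median of 8.70%. The 2 groups overlapped at 2 families only: the TRBV29 TRBJ1-1 family was at 38.6% (37.2 to 40.1, 223 cells) and a TRBV12-1 TRBJ2-5 family at 39.6% (33.6 to 45.9, 19 cells). The largest family was at 86.3% (85.8 to 86.8, 898 cells). With it left out, the TRBC1 class stood at 66.1%.

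The TRBV29 TRBJ1-1 family is the one that shared 53 barcodes with a TRBV3 TRBJ2-1 family, whose Trbc1 share was 26.0% (23.6 to 28.6, 65 cells), the second highest of the J2 families. With cells of exactly 1 TRB contig these were 39.7% (192 cells) and 22.7% (40 cells). The TRBV13-3 TRBJ2-1 family and its partner, both J2, were at 6.46% and 4.68%. With exactly 1 TRB contig they were at 7.20% (119 cells) and 11.5% (8.25 to 15.4, 27 cells), as 64.9% of the partner's cells carried 2.

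**Figure D5:**
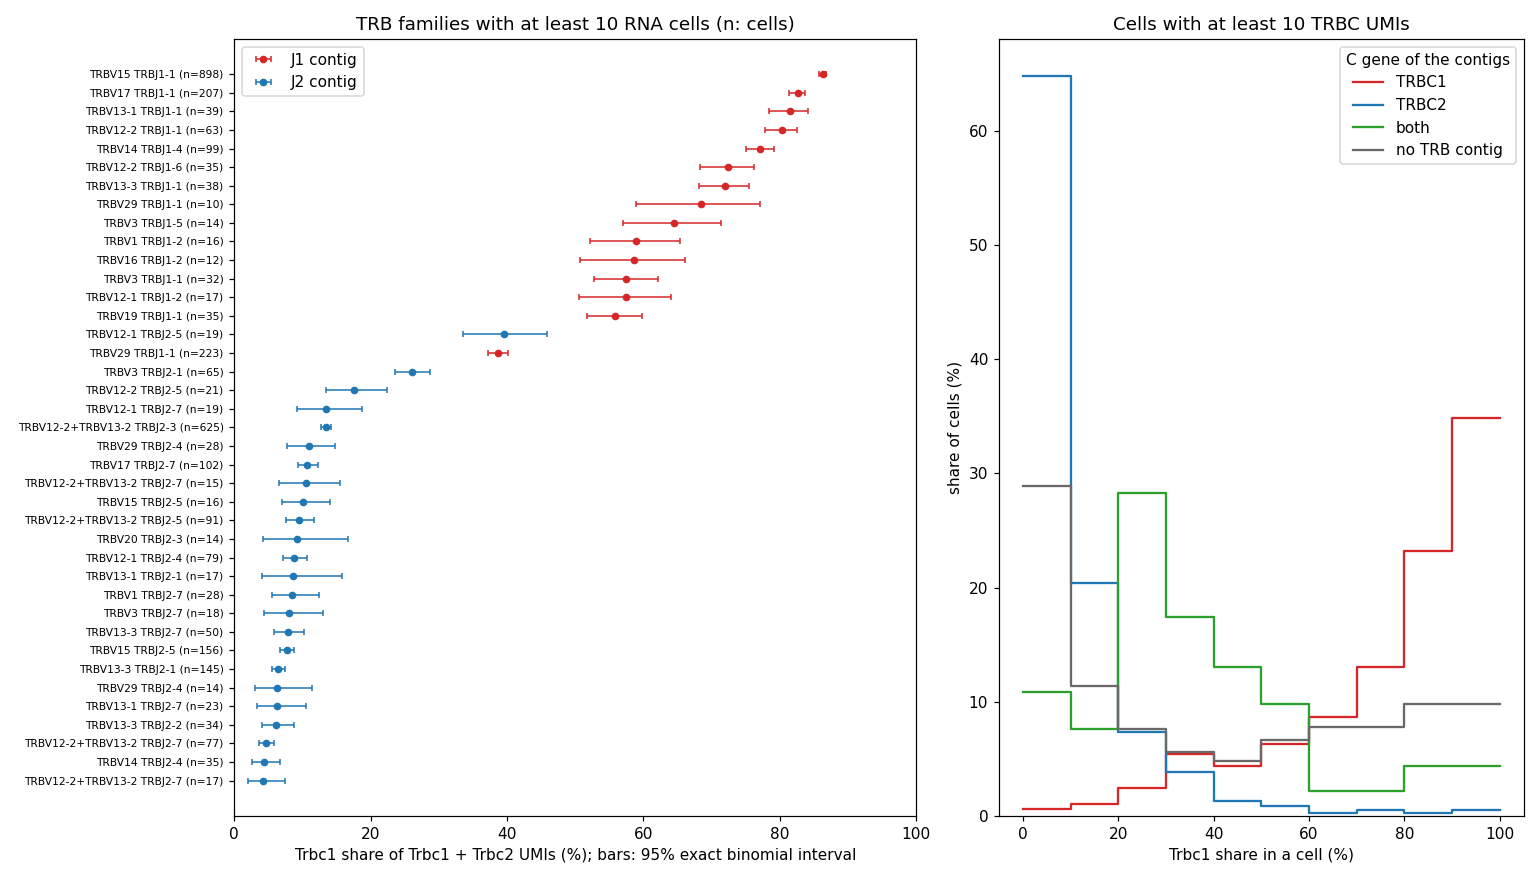
Left, Trbc1 share of Trbc1 plus Trbc2 UMIs in percent for the 39 families with at least 10 RNA cells, red for J1 and blue for J2 contigs, with 95% exact binomial intervals. Right, share of cells in percent in each bin of the Trbc1 share, 10 percentage points wide, by the C gene of the contigs, for cells with at least 10 TRBC UMIs. J1 families lie at 38.6% to 86.3% and J2 families at 4.15% to 39.6%, and cells without a contig are spread over both ends.

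V, D and J genes were read rarely in the RNA. Of all Trb UMIs, 97.5% were on the C genes, with 2789 on V, 614 on J and 157 on D genes. Of 883 cells with a contig and a single leading V gene in the RNA, 532 (60.2%, 56.9 to 63.5) had the V gene of the contig, and with at least 2 V UMIs it was 69.1% (96 of 139). Trbv15 led in 204 cells, of which 83.3% had a TRBV15 contig, and Trbv13-1 in 12 cells, all with a TRBV13-1 contig. Trbv17 matched in 43 of 57 cells and Trbv29 in 29 of 46. Other V genes had a share below the overall value: Trbv12-1 in 16 of 36 cells, Trbv3 in 10 of 34, Trbv19 in 3 of 15, Trbv2 in 2 of 69 and Trbv23 in 0 of 15. Per 1000 cells there were 212 Trbv15 UMIs in TRBV15 cells and 14.2 in the other cells with a contig. In the 625 cells of the TRBV12-2+TRBV13-2 TRBJ2-3 family there were 202 Trbv12-2 and 114 Trbv13-2 UMIs per 1000 cells. A cell with the joined name was counted as a match for either gene. Why both genes had UMIs there was not tested.

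Some V genes of the RNA gathered in a family that named another V. These were picked after their values had been seen. Among cells with a TRB contig, Trbv2 had 76 of its 93 UMIs in cells of the largest family, TRBV15 TRBJ1-1, which is 84.6 per 1000 cells (66.7 to 106) against 5.27 (3.07 to 8.43) in the rest. Trbv23 had 58.0 per 1000 cells (30.0 to 101) in the TRBV17 TRBJ1-1 family and 2.04 in the rest. Trbv3 had 98.7 per 1000 cells (61.8 to 149) in the TRBV29 TRBJ1-1 family and 6.92 in the rest. In this family 31 of the 223 RNA cells had 2 TRB contigs, and 53 barcodes carried the productive TRBV3 TRBJ2-1 sequence as well, so there TRBV3 is also a contig V. TRBV2 and TRBV23 were in only 2 and 5 productive contigs of the whole library.

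J genes had few UMIs in the RNA, and their place against the J of the contig was uneven. In 1629 cells with a contig of TRBJ1-1, the first J of its cluster, there were 20 Trbj1-1 UMIs, 66 of Trbj1-2 to Trbj1-7, which lie between it and C1, and 45 of Trbj2 genes. The other 331 J1 cells had 3 UMIs of J1 genes before the contig J, 2 of that J and 5 after it, and their Poisson intervals overlap. In 1864 cells with a J2 segment other than TRBJ2-1 there were 10 before, 13 of that J and 47 after within the J2 cluster. Over all 2166 J2 cells, 31 further UMIs were of Trbj1 genes, which also lie before the contig J. Trbj2-7 and Trbj2-6, the last J genes of the J2 cluster, had the most UMIs of the Trbj2 genes over all kept cells, 209 and 70. As background, segments between V and J are removed by the joining, while those between J and C stay in the gene. Trbd2, which stays in the gene after a J1 joint, had 14.3 UMIs per 1000 J1 cells (9.49 to 20.6), against 2.04 of Trbd1 (0.556 to 5.23). In J2 cells Trbd2 had 12.0 (7.84 to 17.6) and Trbd1 5.08 (2.54 to 9.09). For each of these genes the J1 and J2 intervals overlap.

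Genes of recombination are given as levels in CPM, which are not per length. Rag1, Rag2 and Dntt, which encode the recombinase and the enzyme that adds bases at joints, are not among the 20794 genes of the matrix, so their level was not measured here. Ptcra, the partner of TRB before a TRA chain exists, had 1 UMI. The 9 end joining genes listed ranged from 3.46 CPM for Nhej1 to 27.2 for Xrcc4, with Lig4, the ligase, at 7.09 and Prkdc at 21.4. The receptor partners Cd3e, Cd3d, Cd3g and Cd247 were at 1471, 1065, 819 and 432 CPM.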

How the data were processed

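The deposited contig table holds, for each assembled contig, its chain, V, D, J and C names, productive flag, CDR3 and counts of UMIs and reads, and the RNA matrix was deposited as raw counts of UMIs, with genes in rows. Per the submitters' processing notes, the tools were featureCounts 2.0.1, STAR 2.6.1a and cutadapt 1.17, with build GRCm38. Which program assembled the contigs is not stated in the labels. A barcode was a cell, represented by its productive TRB contig of most UMIs, and each distinct CDR3 nucleotide sequence was counted once with its commonest segment names. RNA cells had at least 200 genes and under 20% mitochondrial UMIs, which removed 49 of 10387 barcodes. V and J ends were extended base by base while at least 6 sequences and 60% of them shared the next base. Shares have exact Clopper-Pearson 95% intervals, sums exact Poisson intervals, and a count of 0 a limit of 3 counts. PCR reads are not independent molecules. V names were named at 5% or more of cells or sequences. All J, D and C segments were named. For lengths and for J2 shares by V name, the 3 highest and 3 lowest segments with at least 10 sequences were named. Gene names and coordinates are RefSeq's. Code used Python 3.11.15, pandas 2.3.3, numpy 2.4.6, scipy 1.17.1 and matplotlib. The D reading was also run on simulated sequences. These were built from the same D runs and shared ends, with few bases trimmed, so they cannot show whether the runs are right. The members and lists were chosen with earlier results of these data known. Alternatives are in the closing section.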

Additional observations from a re-analysis of the deposited data

Results flagged for a closer look

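TRB contigs that the contig table flags as not productive lie outside the description above but hold the same segments. There were 10189 of them, of which 3728 had a CDR3, with a median length of 373 bases against 599 for productive contigs. A CDR3 of a productive sequence was present in 3329 of the 3728 (89.3%), from 188 of the productive sequences. The TRBV13-3 TRBJ2-1 sequence was flagged not productive in 551 barcodes, with a median length of 342 bases against 644 in its 220 productive contigs. In 3272 cases the barcode's leading productive TRB was another sequence, and in 380 cases, in 259 barcodes, there was no productive TRB. The J cluster equalled the C number in 9514 of 9514 of the not productive contigs with both names. Why these contigs were flagged was not tested.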

How the results depend on the processing

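Of 60 alternative values for 12 results on shares, 45 stayed within the main value's interval. Some of these could not move. Leaving out the largest family, which is TRBC1, kept the same 2858 of 28618 UMIs for the TRBC2 class. The 45 are thus not a measure of stability. The 12 values for D calls were set against intervals as wide as 0% to 84.2% and 28.4% to 99.5%, and the 12 for lengths against the SD of single sequences, so they say nothing of stability; the J1 cluster's mean length was 13.8 over sequences and 14.9 over cells. Without the largest family TRBV15 moved from 27.3% to 6.36% of cells, TRBV12-2+TRBV13-2 from 20.1% to 25.8%, TRBJ1-1 from 39.5% to 22.1%, the J2 cluster from 52.4% to 67.5%, and the Trbc1 share of TRBC1 cells from 77.2% to 66.1%. With any TRB contig with a CDR3, productive or not, an alternative chosen after seeing the data, TRBV15 was 25.1%, TRBJ1-1 35.5% and the J2 cluster 57.0% of cells. Over sequences in at least 2 barcodes TRBJ2-7 was 23.4%. The mean over families of the Trbc1 share was 67.5% for TRBC1 and 10.8% for TRBC2, and the median of cells with at least 10 TRBC UMIs, added after seeing the data, 83.3% and 6.67%. With exactly 1 TRB contig the TRBC2 value was 10.5%. With at least 2 V UMIs the RNA V matched in 69.1%. D stretches and the removal of near copies were also added after seeing the data. No paired analysis was possible because each group is 1 library of another kind. With 1 library of each kind, intervals understate the error, since cells of a family are not independent, and 60.1% of RNA cells had no TRB contig to compare.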

Other observations

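The not productive contigs gave values for the V genes that the RNA placed in families of another V. These combinations were chosen after their values had been seen. TRBV2 with TRBJ2-1 was found on not productive contigs in 6 of 1019 cells of the TRBV15 TRBJ1-1 family (0.589%) and in 2 of 4460 other barcodes (0.0448%). All 6 contigs had no CDR3. TRBV23 with TRBJ2-2 was found in 7 of 215 cells of the TRBV17 TRBJ1-1 family (3.26%) and in 4 of 5264 other barcodes (0.0760%), and all 7 had no CDR3. TRBV3 with TRBJ2-1 was found in 8 of 245 cells of the TRBV29 TRBJ1-1 family (3.27%) and in 24 of 5234 other barcodes (0.459%). A further combination, in a family too small for V UMIs of the RNA to be read by family, was TRBV31 with TRBJ2-5, found in 6 of 12 cells of a TRBV14 TRBJ2-5 family, and in 21 of 5467 other barcodes (0.384%).

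TRBJ1-3, with 14 productive contigs, had 371 not productive ones, and 356 of these had no V name. For TRBJ2-1, 1908 of 2613 not productive contigs had no V name. Among the 484 productive sequences, 34 differed by 1 substitution from a sequence with the same J and at least 10 times as many barcodes. Their highest UMI counts had a median of 8.5 and reached 48. Of the 474 amino acid CDR3s, 9 were made by more than 1 nucleotide sequence, with at most 3 sequences for 1 of them.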
